A study of Rattus norvegicus with 6 samples.

Results

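The transcripts described here mark the endothelium, the cell layer that lines blood vessels, in the cortex of the rat kidney. They were chosen by name: Kdr, Flt1, Plvap, Pecam1, Cdh5, Tek, Tie1, Emcn, Eng and Vwf. Of these 10 genes 9 were measured, among 31179 genes tested on the arrays, and no probe carried an accession matched to Vwf, which is not analysed here. The tissue came from male Sprague-Dawley rats of the Crl:CD(SD) stock, bought at 5 weeks of age. In the benzyl acetate group 3 rats received 1000 mg/kg/day for 4 weeks, and in the vehicle group 3 rats received corn oil over the same time. RNA of each animal was labelled with Cy3 and read on its own 1-colour Agilent array. Benzyl acetate is an ester used in perfumes and flavourings. No allele or transgene separated the groups.

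Renal cortex holds a specialised vascular bed. Glomerular capillaries have open pores for filtration, and the capillaries around the tubules have pores closed by diaphragms built from the PLVAP protein. Both depend on vascular endothelial growth factor A (VEGF-A) released by podocytes and tubule cells, which acts through the receptor KDR, while FLT1 binds the same ligand tightly and signals weakly. The TIE receptors respond to angiopoietins and steady the mature vessel. CDH5 and PECAM1 hold neighbouring cells together, endomucin coats their surface, endoglin is a co-receptor for bone morphogenetic proteins, and von Willebrand factor, encoded by Vwf, catches platelets.

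The promoters of Kdr, Flt1 and Emcn are shown because transcription factors of the ETS family are known to act at endothelial promoters. Kdr and Flt1 had the highest Pearson r of log2 levels across the 6 arrays, though other pairs had a higher Spearman rho. The level of Emcn varied least. In RefSeq's annotation of the GRCr8 build Kdr lies on chromosome 14, Flt1 on 12, Plvap on 16, Pecam1 on 10, Cdh5 on 19, Emcn on 2 and Eng on 3, and Tek and Tie1 share chromosome 5. The RefSeq table of the GRCr8 build held a promoter for 6 of the 9 measured genes. Each sequence runs 5′ to 3′ in the direction of the gene, from 250 bases before the start site to 50 after it, and capitals mark the ETS core GGAA or, for a core on the other strand, TTCC. The start site used for Kdr, Flt1 and Emcn lies after the first annotated base of the gene. For Flt1 the whole sequence lies inside the gene, which begins at base 12333050. Counts of matches belong to the start site used. The Kdr promoter lies at chr14:32571813-32572112 on the plus strand, the Flt1 promoter at chr12:12333180-12333479 on the plus strand, and the Emcn promoter at chr2:228564289-228564588 on the plus strand.
Kdr promoter: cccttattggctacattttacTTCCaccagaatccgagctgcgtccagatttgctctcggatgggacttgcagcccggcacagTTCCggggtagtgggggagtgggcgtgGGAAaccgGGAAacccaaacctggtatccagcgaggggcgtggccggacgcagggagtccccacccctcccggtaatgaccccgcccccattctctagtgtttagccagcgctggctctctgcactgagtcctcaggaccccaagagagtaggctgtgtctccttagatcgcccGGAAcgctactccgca
Flt1 promoter: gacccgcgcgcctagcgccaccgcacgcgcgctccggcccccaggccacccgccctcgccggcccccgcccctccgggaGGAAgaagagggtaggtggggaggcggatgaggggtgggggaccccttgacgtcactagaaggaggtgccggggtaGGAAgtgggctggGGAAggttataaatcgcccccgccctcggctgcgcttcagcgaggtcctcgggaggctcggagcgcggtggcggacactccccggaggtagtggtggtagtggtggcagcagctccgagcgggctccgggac
Emcn promoter: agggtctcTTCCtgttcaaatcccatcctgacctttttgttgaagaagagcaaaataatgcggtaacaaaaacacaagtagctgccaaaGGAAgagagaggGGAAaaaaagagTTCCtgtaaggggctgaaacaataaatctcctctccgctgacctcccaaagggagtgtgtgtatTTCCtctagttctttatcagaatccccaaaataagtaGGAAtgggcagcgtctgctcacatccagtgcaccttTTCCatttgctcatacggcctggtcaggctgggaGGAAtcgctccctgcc
The core GGAA, searched on both strands, stood 5 times in the Kdr promoter, 3 times in that of Flt1 and 8 times in that of Emcn. It is a short word, found in 95.8% of all 33469 promoters of the table. At least 8 matches were held by 3.90% of them. The longer form AGGAAG, which contains the core, had a match in 5 of the 6 endothelial promoters and in 34.5% of all promoters, and Kdr was the endothelial promoter without it. The form CGGAAG was in none of the 6 and in 16.6% of all. A match of letters is no evidence of binding.

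Levels are given as log2 of the background-subtracted signal minus the array's 75th percentile of 61537 gene probes, so 0 is the level of that percentile. The scale is relative and belongs to each probe, so the level of 1 gene is not compared with that of another. All 16 probes of the 9 genes were well above background on all 6 arrays, and none of their spots was marked as an outlier. The share of all probes well above background was 69.0% to 69.8% on the benzyl acetate arrays and 70.5% to 72.0% on the vehicle arrays. The 75th percentile of the unscaled signal was 988, 990 and 883 on the benzyl acetate arrays (replicates 1, 2 and 3) and 1003, 1049 and 1057 on the vehicle arrays. Benzyl acetate replicate 3 had the lowest of these and the widest gap between the 3′ and 5′ control probes of rat Gapdh, a measure of RNA integrity and labelling, at 2.60 log2 against 2.37 to 2.45 on the other arrays. Vehicle replicate 1 was the only array on slide 1, and the other 5 were on slide 2. Slide 1 and that animal cannot be told apart.

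The design allows 1 comparison of endothelial transcripts, between rats dosed for 4 weeks and rats given vehicle. No endothelial gene passed the threshold of an adjusted p under 0.05 in limma. Kdr and Flt1, both VEGF receptors, had the highest positive differences, at 1.19-fold and 1.13-fold, and the angiopoietin receptor Tek had the lowest, 1.16-fold lower with benzyl acetate. The other 6 genes differed by 1.02-fold to 1.11-fold. All 9 had 95% intervals inside a 1.5-fold difference, which held for 73.9% of all genes tested. In bulk tissue, fewer endothelial cells and less of a transcript per cell cannot be told apart.

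Over all genes limma called 0 higher and 0 lower of 31179, so the percentage called was 0 in each direction. At an unadjusted p under 0.05, 2 of the 9 endothelial genes were higher (Kdr and Flt1) and 0 were lower, where 3.82% of all genes were higher and 2.92% lower. The benzyl acetate arrays all lay above the vehicle arrays for 3 endothelial genes (Kdr, Flt1 and Tie1), against 7.51% of all genes. They all lay below for 1 endothelial gene (Tek), against 5.31% of all genes. The median log2 difference was 0.033 over the 9 genes and 0.012 over all genes tested, with 7 of the 9 genes positive and 54.0% of all genes positive. Leaving out vehicle replicate 1 gave a median of 0.095, and leaving out benzyl acetate replicate 2 gave 0.070. Among the 12276 genes with a symbol, which all 9 have, the median log2 difference was 0.0014 and 50.4% were positive. Animals of a group differed little: the median SD within groups was 0.086 log2 over the endothelial genes and 0.14 over all genes. Over genes with a symbol that SD was 0.12.

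Among the growth factor receptors, Kdr encodes VEGFR2, the receptor that carries most of the VEGF-A signal in endothelium. Its log2 level was 4.64, 4.64 and 4.77 in the benzyl acetate arrays (replicates 1, 2 and 3), against 4.34, 4.41 and 4.53 in the vehicle arrays. Each benzyl acetate array was above each vehicle array, and vehicle replicate 3 came closest. The log2 difference was 0.25 (95% interval 0.055 to 0.45, n = 3 per group; adjusted p = 0.700 in limma). Before scaling the Kdr signal was 24710, 24734 and 24048 in the benzyl acetate arrays, against 20302, 22374 and 24503 in the vehicle arrays. On that unscaled signal the groups overlapped, because vehicle replicate 3 was above benzyl acetate replicate 3. The part of the 75th percentile in the difference was not tested. Within slide 2, without vehicle replicate 1, the scaled log2 difference of Kdr was 0.21.

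Flt1 encodes VEGFR1, which also exists as a soluble form that traps VEGF-A. Its brightest probe had log2 levels of -2.07, -2.06 and -2.08 in the benzyl acetate arrays, against -2.34, -2.23 and -2.18 in the vehicle arrays. After scaling the treated animals were nearly equal to each other, with an SD of 0.010, and all lay above the vehicle animals, whose SD was 0.085. Before scaling the signal was 236, 237 and 209 in the benzyl acetate arrays, against 198, 223 and 234 in the vehicle arrays, and the groups overlapped. The log2 difference was 0.18 (95% interval 0.0075 to 0.35; adjusted p = 0.732 in limma). The other probes of Flt1 gave log2 differences of 0.23 and 0.14 with overlapping groups. Within slide 2 the difference of the brightest probe was 0.13.

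Tek encodes TIE2, the receptor of the angiopoietins. Its brighter probe had log2 levels of -2.70, -2.77 and -2.84 in the benzyl acetate arrays, against -2.65, -2.61 and -2.43 in the vehicle arrays. All treated animals were lower, though benzyl acetate replicate 1 and vehicle replicate 1 nearly met. The log2 difference was -0.21 (95% interval -0.42 to 0.0047; adjusted p = 0.736 in limma). The dimmer probe of Tek, at log2 levels of -4.25 to -3.70, gave a difference of -0.0014 and overlapping groups, so the separation stood on 1 of 2 probes. Within slide 2 the difference of the brighter probe was -0.25.

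Tie1 encodes the partner of TIE2, which binds no angiopoietin with high affinity on its own. Its brighter probe had log2 levels of -0.86, -0.78 and -0.89 in the benzyl acetate arrays, against -0.90, -1.11 and -0.96 in the vehicle arrays. The lowest treated and the highest vehicle animal were almost level, and vehicle replicate 2 was the lowest of all. Before scaling the signal was 544, 577 and 476 in the benzyl acetate arrays, against 538, 485 and 545 in the vehicle arrays, and the groups overlapped. The log2 difference was 0.14 (95% interval -0.058 to 0.35; adjusted p = 0.789 in limma), and the dimmer Tie1 probe gave 0.051 with overlapping groups. The TIE receptors thus had log2 differences of opposite sign, and the difference between them was not tested.

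**Figure D1:**
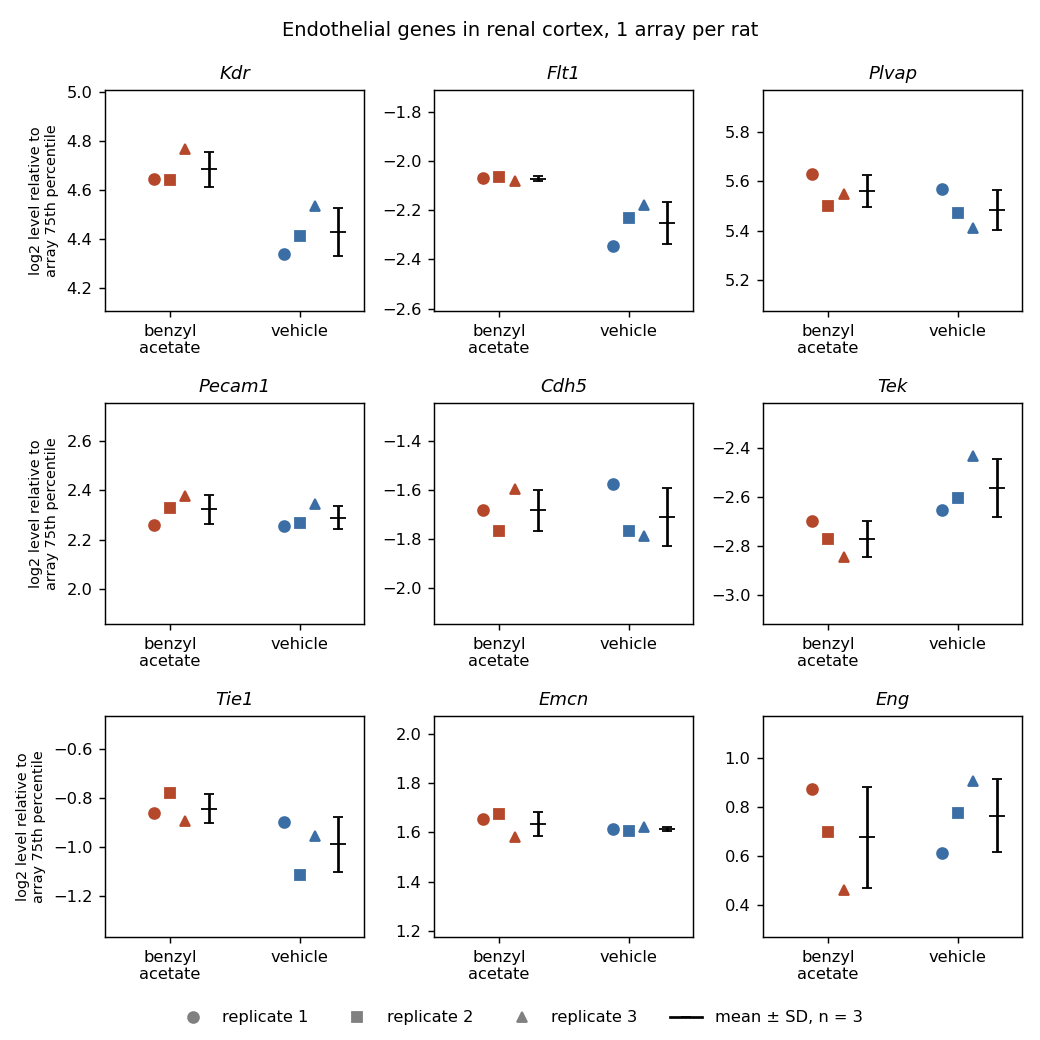
Log2 level relative to the array's 75th percentile (y axis, 0.9 log2 tall in every panel) of the 9 measured endothelial genes in benzyl acetate and vehicle rats, with 1 marker per animal and the mean ± SD (n = 3) beside it. The groups do not overlap for Kdr, Flt1, Tie1 and Tek, and Emcn has the narrowest spread.

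Plvap encodes the protein of the pore diaphragms of peritubular capillaries. Its bright probe had log2 levels of 5.63, 5.50 and 5.55 in the benzyl acetate arrays, against 5.57, 5.47 and 5.41 in the vehicle arrays. The groups overlapped, and the log2 difference was 0.076 (95% interval -0.11 to 0.26; adjusted p = 0.873 in limma). A dimmer probe of Plvap gave 0.0093. On both probes benzyl acetate replicate 1 and vehicle replicate 1 were the highest arrays of their groups.

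Of the junction and surface genes, Pecam1 encodes CD31, an adhesion molecule that platelets and leukocytes also carry. Its bright probe had log2 levels of 2.26, 2.33 and 2.38 in the benzyl acetate arrays, against 2.26, 2.27 and 2.34 in the vehicle arrays, a difference of 0.033 (95% interval -0.13 to 0.20; adjusted p = 0.950 in limma). The dim Pecam1 probe had log2 levels of -3.01, -2.86 and -3.71 in the benzyl acetate arrays, against -3.93, -3.27 and -2.83 in the vehicle arrays. That probe ran from -3.93 to -2.83 over the 6 arrays where the bright one spanned 0.12 log2, and it was lowest in vehicle replicate 1 and benzyl acetate replicate 3. Those are the array alone on its slide and the array with the widest Gapdh gap. Their part in the spread was not tested.

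Cdh5 encodes VE-cadherin, the adhesion protein of endothelial adherens junctions. Its brighter probe had log2 levels of -1.68, -1.77 and -1.60 in the benzyl acetate arrays, against -1.58, -1.77 and -1.79 in the vehicle arrays. The groups overlapped, with a log2 difference of 0.028 (95% interval -0.19 to 0.25; adjusted p = 0.971 in limma). The dimmer Cdh5 probe separated the groups, with -2.97, -3.06 and -3.01 in the benzyl acetate arrays against -3.14, -3.35 and -3.19 in the vehicle arrays. Its log2 difference was 0.21 (95% interval 0.013 to 0.41; adjusted p = 0.738 over all probes in limma).

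Emcn encodes endomucin, a sialomucin of capillary and venous endothelium. Its log2 level was 1.65, 1.67 and 1.58 in the benzyl acetate arrays, against 1.61, 1.60 and 1.62 in the vehicle arrays. The 6 animals lay within 0.092 log2, the narrowest range of the 9 genes, and the groups overlapped. The log2 difference was 0.023 (95% interval -0.13 to 0.17; adjusted p = 0.965 in limma).

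Eng encodes endoglin, a co-receptor for BMP9 and the transforming growth factors beta that activated macrophages also express. Its log2 level was 0.87, 0.70 and 0.46 in the benzyl acetate arrays, against 0.61, 0.78 and 0.91 in the vehicle arrays. The groups overlapped, with benzyl acetate replicate 3 lowest and vehicle replicate 3 highest, and the range of 0.45 log2 was the widest of the 9 genes. The log2 difference was -0.089 (95% interval -0.41 to 0.24; adjusted p = 0.925 in limma).

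Of the 9 genes 6 had several probes, and in each of the 6 all probes had the same sign. Of the 16 probes 13 had positive and 3 negative log2 differences. The dim probe of Pecam1 was the only probe whose 95% interval reached past 1.5-fold.

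**Figure D2:**
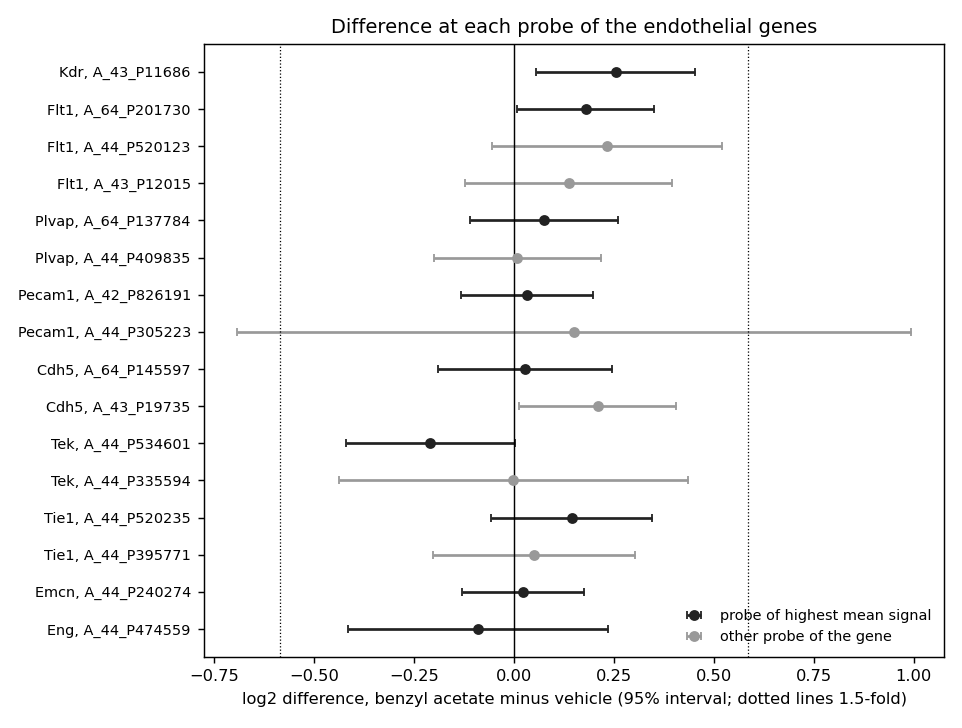
Log2 difference, benzyl acetate minus vehicle, with its 95% interval from limma (x axis), for each of the 16 probes of the 9 genes. Black points are the probe of highest mean signal per gene, which stands for the gene elsewhere, and grey points are further probes. Intervals of 3 probes exclude 0 without adjustment (Kdr, the brightest Flt1 probe and the dimmer Cdh5 probe), and none of the probes passed after adjustment.

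Positive and negative correlations between the 9 genes were about as frequent across animals. Over the 36 pairs of genes the median Pearson r across the 6 arrays was 0.037, with 19 pairs positive and 17 negative, from -0.72 (Cdh5 with Eng) to 0.93 (Kdr with Flt1). Over all 75270315 pairs of 12270 genes with a symbol and a value on every array the median r was 0.010. The median over the endothelial pairs was 0.25 without benzyl acetate replicate 3. No pair passed after Benjamini-Hochberg adjustment over the 36 pairs.

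Kdr and Flt1 had a Pearson r of 0.93 (exact permutation p = 0.00833, adjusted p = 0.300) and a Spearman rho of 0.77 (exact permutation p = 0.103, adjusted p = 0.669), both two-sided over 6 arrays. Without vehicle replicate 1 and benzyl acetate replicate 3, the arrays farthest from the Kdr median, r was 0.98. Without vehicle replicates 1 and 2, the arrays farthest from the Flt1 median, it was 0.69. An r at least as high was held by 0.44% of all gene pairs. Since both genes were higher in every treated animal, r was also taken on deviations from the group means, where it was 0.69, a value reached by 10.3% of all pairs.

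Tek and Eng had an r of 0.74 (exact permutation p = 0.0833, adjusted p = 0.788) and a rho of 0.71 (exact permutation p = 0.136, adjusted p = 0.669). Without the arrays farthest from the Tek median, vehicle replicate 3 and benzyl acetate replicate 3, r was 0.032. On deviations from the group means r of Tek and Eng was 0.89, the highest of the 36 pairs on that measure. The part of vehicle replicate 3 and benzyl acetate replicate 3 in the relation was not tested. Plvap and Cdh5 had an r of 0.71 (exact permutation p = 0.114, adjusted p = 0.788) and a rho of 0.83 (exact permutation p = 0.0583, adjusted p = 0.669). Without vehicle replicate 3 and benzyl acetate replicate 1, r of that pair was 0.97. Within slide 2, which holds 5 arrays, the median r over the 36 pairs was 0.21.

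**Figure D3:**
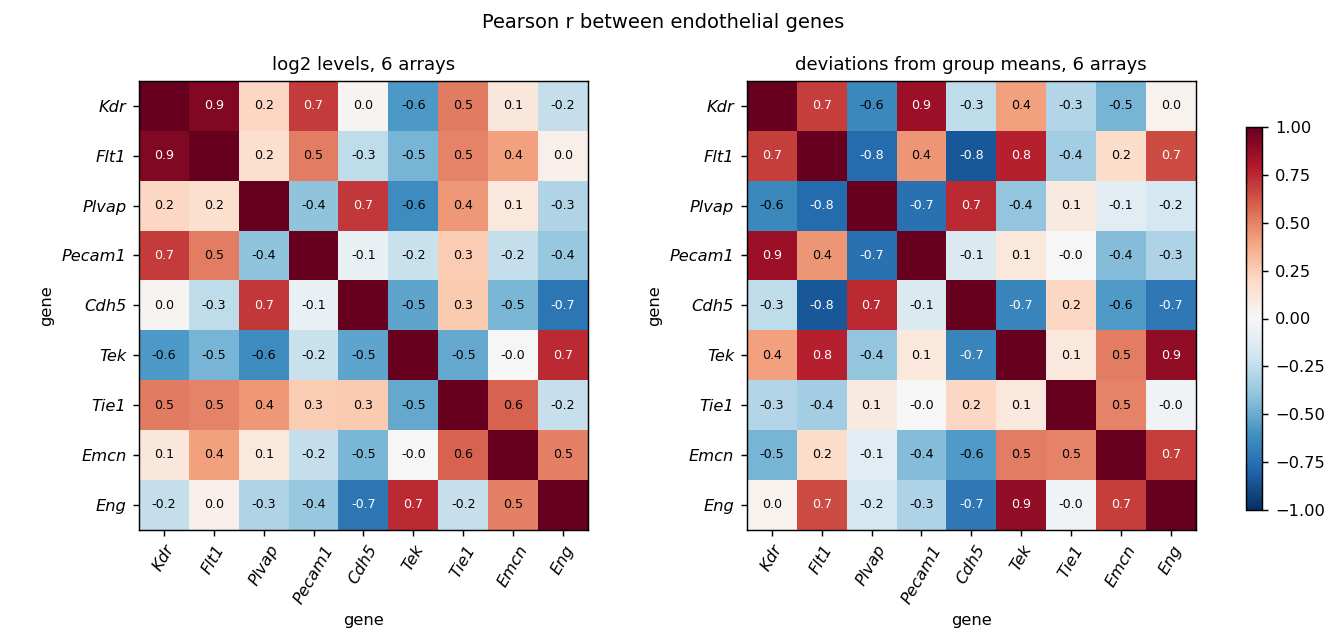
Pearson r between the 9 endothelial genes across the 6 arrays, for log2 levels (left) and for deviations from the group means (right), with red above 0 and blue below 0. Kdr and Flt1 have the highest r on the left, at 0.93, and positive and negative pairs are about as frequent in both panels (19 and 17 on the left).

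The mean of the 9 genes, each centred on its 6 arrays, was 0.051, 0.019 and 0.0035 log2 in the benzyl acetate arrays and -0.041, -0.052 and 0.019 log2 in the vehicle arrays. These groups overlapped at vehicle replicate 3. The genes with a symbol whose levels followed that mean most closely over the 6 arrays were Sppl2b, Kifc2, Rps6kb2, Gde1 and P2rx1, with Pearson r of 0.98 to 1.00 among 12261 genes compared. With 6 arrays so many genes give high values by their number alone, and 79 of them had an r over 0.9.

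Ligands and co-receptors of the VEGF system were also measured, 7 of 8 listed, and in limma 0 passed the threshold. At an unadjusted p under 0.05 in limma 1 was higher and 1 lower, against 3.82% and 2.92% of all genes. Vegfa, the main ligand of KDR, had log2 levels of 4.42, 4.46 and 4.27 in the benzyl acetate arrays, against 4.10, 4.16 and 4.22 in the vehicle arrays. The groups did not overlap, and the log2 difference was 0.22 (95% interval 0.027 to 0.42; adjusted p = 0.709 in limma). All 6 probes of Vegfa were positive, from 0.10 to 0.27. Pgf, placental growth factor, which binds FLT1 but not KDR, had a log2 difference of -0.50 (95% interval -0.98 to -0.032; adjusted p = 0.726 in limma) without overlap, while its other probe gave 0.067. Vegfc, a ligand of the lymphatic receptor FLT4, had -0.15, also without overlap. The rest overlapped, with log2 differences of 0.090 for Vegfb, 0.059 for Vegfd, 0.11 for the co-receptor Nrp1 and 0.0019 for Flt4. The list's median was 0.059 against 0.012 for all genes.

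Of the angiopoietins and TIE regulators 4 of 6 listed were measured and 0 passed in limma. At an unadjusted p under 0.05 in limma 1 was higher and 0 lower, against 3.82% and 2.92% of all genes. The TIE2 agonist Angpt1 had a log2 difference of -0.22 (95% interval -0.71 to 0.26) and the context-dependent ligand Angpt2 one of -0.13 (-0.33 to 0.061), both with overlapping groups. Without vehicle replicate 1 Angpt1 had -0.089. The brightest Angpt2 probe gave the difference nearest 0 of its 3 probes, which ran down to -0.56 with a mean of the probes of -0.32. Angpt4 had log2 levels of -3.27, -4.44 and -4.34 in the benzyl acetate arrays, against -5.15, -5.30 and -4.97 in the vehicle arrays. Its difference of 1.12 (95% interval 0.33 to 1.91; adjusted p = 0.675 in limma) came from a dim probe whose level was highest in benzyl acetate replicate 1. Without that array the Angpt4 difference was 0.75, and with normexp background correction it was 0.51. Adam17, a protease that sheds receptors, had 0.090. The list's median was -0.021.

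In the endoglin and BMP9 signalling list 15 of 17 genes were measured, and 0 passed in limma. Log2 differences were positive for 12 and negative for 3, where 54.0% of all genes were positive. At an unadjusted p under 0.05 in limma 2 were higher and 0 lower, against 3.82% and 2.92% of all genes. The median was 0.10 against 0.012 for all genes. Id1, a target gene of BMP signalling in endothelium, had log2 levels of 1.31, 1.25 and 1.19 in the benzyl acetate arrays, against 0.86, 0.83 and 1.04 in the vehicle arrays. The groups did not overlap, and the log2 difference was 0.34 (95% interval 0.14 to 0.55; adjusted p = 0.659 in limma). Its relatives Id2 and Id3 had 0.25 and 0.24 with overlapping groups. Tgfbr2, the type II receptor of the transforming growth factors beta, had 0.29 (95% interval 0.077 to 0.51; adjusted p = 0.685 in limma) without overlap, and its further probes ran down to 0.050. Acvrl1, which encodes the endothelial BMP9 receptor ALK1, had -0.0019, its partner Bmpr2 had 0.12 and the ligand Gdf2, which encodes BMP9, had -0.13.

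The 6 further endothelial lists had 0 genes past the threshold in limma. Each had 0 to 2 genes in a direction at an unadjusted p under 0.05 in limma. Weibel-Palade body and haemostasis genes had 2 lower of 10, with a lowest log2 difference of -0.78. Transcription factors had 2 higher of 19. Of all genes 3.82% were higher and 2.92% lower at that p. Junction proteins had a median log2 difference of 0.0085 over 14 genes, Weibel-Palade body and haemostasis genes 0.0079 over 10, transcription factors 0.018 over 19, further endothelial-enriched genes 0.023 over 24, segment genes 0.021 over 15 and Notch pathway genes 0.0037 over 10. The number of positive genes was 8 of 14, 5 of 10, 10 of 19, 14 of 24, 8 of 15 and 5 of 10 in the same order, where 54.0% of all genes were positive. Vcam1, an adhesion molecule listed with the segment genes, had a difference of -0.59 (95% interval -1.12 to -0.060; adjusted p = 0.715 in limma) with overlapping groups.

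Markers of other cell types were counted because some of them share these transcripts or neighbour the endothelium. In limma 0 of them passed, and each list had 0 to 2 genes in a direction at an unadjusted p under 0.05. Of all genes 3.82% were higher and 2.92% lower at that p. Lymphatic endothelial markers had a median log2 difference of 0.086 over 5 genes, platelet and megakaryocyte markers -0.13 over 6, erythroid markers -0.0043 over 6, macrophage and monocyte markers -0.13 over 10, mural and mesangial markers -0.033 over 11, podocyte markers -0.017 over 10, fat cell markers -0.093 over 5 and proximal tubule markers 0.095 over 9. All 10 macrophage markers were negative, with Lyz2, a lysozyme, at -0.048, where 54.0% of all genes were positive. Their mean, each gene centred on its 6 arrays, was 0.017, -0.33 and 0.070 log2 in the benzyl acetate arrays. In the vehicle arrays it was -0.052, 0.0063 and 0.28 log2, so the groups overlapped. Of the 6 platelet markers 2 were positive and 4 negative. Pf4, a platelet chemokine with the lowest difference among them, had -0.49 with overlapping groups and -0.29 without benzyl acetate replicate 1. Among podocyte markers Podxl, a sialomucin of podocytes that endothelium also carries, had -0.049 with overlapping groups. Fat cell markers spread more widely than their median shows, from -2.94 to 0.34. The gene at -2.94 was dim, at log2 levels of -8.04 to -2.95 over the 6 arrays. Of the 5, 3 were well above background on all 6 arrays. The rest were kept through all 3 arrays of 1 group only, so group overlap is not counted for this list.

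Summed linear levels, in multiples of the array's 75th percentile, were 81.3 to 85.5 for the 9 endothelial genes in the benzyl acetate arrays and 76.4 to 78.3 in the vehicle arrays. Such sums weight each gene by its probe's brightness, mainly Plvap and Kdr here, and are given as a description only. The centred mean of the 9 genes, which weights them equally, overlapped between the groups. Macrophage markers summed to 77.5 to 119 in the benzyl acetate arrays and 94.9 to 110 in the vehicle arrays, with 10 of 12 listed measured. Platelet markers, 6 of 11 listed, summed to 2.06 to 2.72 in the benzyl acetate arrays and 2.36 to 3.01 in the vehicle arrays. Lymphatic markers, 5 of 6 listed, summed to 6.64 to 7.87 in the benzyl acetate arrays and 5.89 to 7.60 in the vehicle arrays. Mural markers, 11 of 12 listed, summed to 28.2 to 33.6 in the benzyl acetate arrays and 29.8 to 34.4 in the vehicle arrays. Podocyte markers, 10 of 10 listed, summed to 58.0 to 64.2 in the benzyl acetate arrays and 57.2 to 65.9 in the vehicle arrays. Each of these 5 marker ranges overlapped between groups. The part of other cell types in the endothelial levels was not tested.

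**Figure D4:**
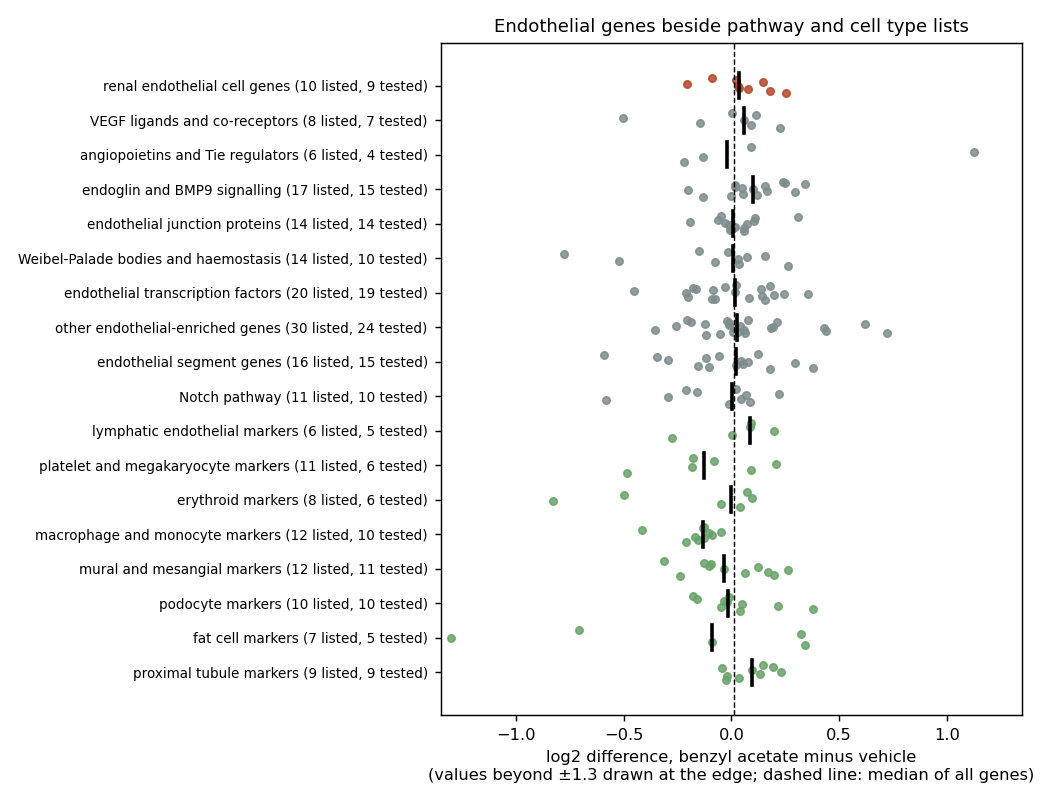
Log2 difference, benzyl acetate minus vehicle (x axis), of every tested gene of the 9 measured endothelial genes (red), of 9 pathway and endothelial lists (grey) and of 8 lists for other cell types (green), with each list's median as a black bar. The endothelial genes lie between -0.21 and 0.25 around a median of 0.033, close to the dashed median of all genes at 0.012.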

How the data were processed

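Scanner tables of 6 arrays were used, 1 per rat. Per the file headers they hold linear intensity from Agilent Feature Extraction, and the submitters' processing notes name version 10.7. Spot signals were background-subtracted with spatial detrending, and the authors' deposited flags mark which spots are outliers, saturated (0 spots) or well above background. The authors' deposited table of intensity values equalled the processed signal divided by 1 factor per array, close to its 75th percentile. Its column medians were 0.115, 0.112 and 0.113 for benzyl acetate and 0.110, 0.111 and 0.111 for vehicle.

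The log2 signal was scaled by subtracting the log2 75th percentile, and flagged outliers were left out. Probes were kept when well above background on all 3 arrays of a group. They were named by matching accessions, without versions, to RefSeq GRCr8 (28206 of 61537 probes matched), and the probe of highest mean signal stood for a gene. All 31179 genes of both groups entered 1 fit in limma 3.58.1 (R 4.3.3) with Benjamini-Hochberg adjustment, which was tested on simulated data. The number of arrays limits the precision. Replicate numbers were not treated as pairs: same-numbered deviations correlated at -0.11, 0.0075 and 0.00095.

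The members and the 17 further lists were chosen with earlier results of these data known. All members were named, as were the VEGF and angiopoietin lists and part of the endoglin list. From the other lists the rule named the 3 brightest genes, of which Vcam1, Podxl, Pf4 and Lyz2 were picked after their values were seen. Array-grid coordinates of an older rat build were not used.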

Additional observations from a re-analysis of the deposited data

How the results depend on the processing

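The 9 endothelial genes were refitted under 20 alternatives, and in limma 0 of the 180 results passed the threshold. The slide as a block and the fit without vehicle replicate 1, alone on its slide, gave the same values and are 1 check counted under 2 names. Of the 9 genes 6 kept their direction throughout. Kdr ranged from 0.21 to 0.31 log2 (adjusted p from 0.274 to 0.884), Flt1 from 0.13 to 0.22 (0.359 to 0.894), Tek from -0.25 to -0.0014 (0.397 to 0.999) and Tie1 from 0.051 to 0.19 (0.585 to 0.955). The others turned near 0: Cdh5 was -0.00061 with median scaling and -0.014 to 0.10 without 1 array, Emcn was -0.0062 with median scaling and -0.011 with normexp, and Eng was -0.19 to 0.019 without 1 array, positive without benzyl acetate replicate 3. The median of the 9 genes was 0.095 with the slide as a block, 0.092 from the mean of the probes and 0.023 to 0.095 without 1 array, and 0.0043 with median scaling, where the median of all genes was -0.017. The median r over pairs ran from -0.12 to 0.25 without 1 array. With the replicate block limma called 0 genes, Kdr had an adjusted p of 0.721, and no call changed. Over all genes limma called 2 lower with normexp, 0 to 2 lower and 0 higher without 1 array, and 0 in the other alternatives; without benzyl acetate replicate 1 it called 2 lower. At an unadjusted p under 0.05 it called 1190 higher and 910 lower, 5497 and 1081 with no filter on dim probes, 1555 and 737 with normexp and 828 and 1276 with median scaling. Of 440 results of the 22 other named genes 0 passed and 24 turned: Acvrl1 was 0.0027 with array weights, 0.039 with normexp, 0.0044 with quantile normalization and -0.097 to 0.094 without 1 array; Flt4 was -0.0059 with cyclic loess, -0.0055 from the mean of the probes, -0.027 with median scaling, -0.0078 with quantile normalization and -0.092 to 0.11 without 1 array; Gdf2 was 0.044 with normexp, Vegfd -0.13 with the slide as a block and -0.13 to 0.22 without 1 array; the probe of lowest signal gave 0.067 for Pgf and -0.017 for Vegfb. Without 1 array Adam17 was -0.043 to 0.17, Lyz2 -0.19 to 0.12 and Podxl -0.20 to 0.065. The cause of these changes was not tested.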
